A study of Mus musculus with 2 samples.

Results

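B cells formed a small part of 2 droplet single-cell RNA libraries that had been sorted for CD4-positive and CD8-positive cells from lung tumours of mice. They are described here as the 767 of 25454 kept barcodes chosen by a rule on raw UMIs, the unique molecular identifiers that count captured RNA molecules. A kept barcode had at least 500 detected genes and at most 10% of its UMIs from mitochondrially coded genes. A B cell then had at least 3 UMIs of Cd79a, Cd79b and Ms4a1 together and 0 UMIs of Cd3d, Cd3e and Cd3g, and barcodes with at least 10 Jchain UMIs and at least 3 Mzb1 UMIs, as in plasma cells, were left out. The levels of these genes are thus not findings. The LYZKL library held 323 B cells among 13451 kept barcodes and the WTKL library 444 among 12003. LYZKL mice carried Tmem173fl/fl;Lyz2-Cre bone marrow, in which Cre is driven from the Lyz2 locus of myeloid cells, and WTKL mice carried Tmem173fl/fl bone marrow without Cre. Tmem173 encodes STING. In both groups the marrow had been placed into lethally irradiated KrasLSL-G12D/+Lkb1fl/fl hosts, whose lung tumours were started by intranasal adenoviral Cre, and the cells were taken 8 weeks later. Tamoxifen is named in the treatment label of WTKL mice alone. The floxed allele was thus in the marrow of both groups, and B cells of donor and host origin could not be told apart. The labels call the cells T cells, so the B cells lay outside the labelled type, and the sort can set their share. Each group was 1 library, so no test between groups was possible, and every interval below is a 95% interval that covers counting error only.

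A mature B cell that has not met its antigen carries IgM and IgD, both made from the same rearranged heavy chain gene by splicing to the Ighm or the Ighd constant exons. After activation it can enter a germinal centre, where its antibody genes are mutated and the variable exons are joined to a constant gene further along the locus, such as Ighg2b or Igha; the stretch that holds Ighm and Ighd is then lost. Ighd RNA therefore marks naive cells, and its absence beside a switched constant gene marks antigen-experienced cells. In lung tumours B cells are known from lymphoid aggregates next to the tumour, some of which hold germinal centres.

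B cells made up 2.40% of kept barcodes in LYZKL (2.15 to 2.67%) and 3.70% in WTKL (3.37 to 4.05%, Clopper-Pearson), a ratio of 0.65 (0.56 to 0.75). The labels name 7202 cells for LYZKL and 6609 for WTKL, fewer than the 13607 and 12204 barcodes deposited, and these shares are over the barcodes kept. Their median depth was 3416 UMIs over 1574 genes in LYZKL and 3092 UMIs over 1455.5 genes in WTKL, and their UMIs summed to 1224297 in LYZKL and 1501914 in WTKL. The rule left out 220 LYZKL and 371 WTKL barcodes that had the B cell genes and also a Cd3 UMI, and 10 LYZKL and 15 WTKL barcodes by the plasma cell limit. At the threshold itself, 8 LYZKL and 13 WTKL cells had exactly 3 UMIs of the B cell genes, of which 100% in either library had an Ebf1 UMI; 10 LYZKL and 7 WTKL barcodes had 2 UMIs and fell outside, with an Ebf1 UMI in 70.0% and 85.7% of them. The libraries shared 100 barcode sequences, 4 of them on WTKL B cells, and none was a B cell in both.

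Genes that the rule had not used fitted the label. Ebf1, the transcription factor that sets up the B lineage, had a UMI in 99.4% of LYZKL and 99.3% of WTKL B cells. Among T cells of the same libraries, taken as 9145 LYZKL and 8326 WTKL barcodes with at least 3 Cd3 UMIs and none of the 3 B cell genes, the share was 0.722% in LYZKL and 1.32% in WTKL, at median depths of 6033 and 5184.5 UMIs. Pax5, which keeps B cells committed, was detected in 65.6% of LYZKL and 66.7% of WTKL B cells. Markers of T cells summed to 323 CPM (a gene's summed UMIs, scaled by all UMIs of the same cells) in LYZKL and 352 CPM in WTKL B cells, against 6811 and 6884 CPM in T cells. Of that list's 16 members, 3 were at 0 by the rule in either library, and Cd2, which B cells also express, gave 186 CPM in LYZKL and 149 CPM in WTKL.

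A few barcodes carried many UMIs of myeloid genes. With a limit of 10 UMIs of myeloid markers or of Saa3, set after the data were seen, 5 LYZKL B cells (1.55%) and 10 WTKL B cells (2.25%) were past it, at median depths of 7645 and 5590 UMIs. They are called mixed barcodes below, and ratios of LYZKL over WTKL that move by more than 1.5-fold without them are given both ways. In LYZKL 4 of the 5 had no Ighd UMI, while in WTKL all 10 had one. Neutrophil markers summed to 1601 CPM in LYZKL and 1573 CPM in WTKL B cells, and macrophage markers to 1287 and 1176 CPM, of which Apoe alone gave 1021 and 797 CPM. Without mixed barcodes the neutrophil sums were 206 CPM in LYZKL and 309 CPM in WTKL and the macrophage sums 1119 and 866 CPM. In T cells the sums were 1813 and 1659 CPM for neutrophil markers and 1324 and 1569 CPM for macrophage markers. Camp, Ltf and Vcan were at 0 in LYZKL B cells, and no member was at 0 in WTKL. Within 1 LYZKL mixed barcode lay 1039 of that library's 1216 Saa3 UMIs, and within 1 WTKL mixed barcode 316 of that library's 412 Lyz2 UMIs.

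Most B cells of either library were Ighd-positive. An Ighd UMI was found in 254 of 323 LYZKL B cells (78.6%, 73.8 to 83.0%) and in 371 of 444 WTKL B cells (83.6%, 79.8 to 86.9%), a ratio of 0.94 (0.88 to 1.01). After each cell had been thinned to 1500 UMIs, which left out 12 shallower cells per library, the shares were 61.1% in LYZKL and 68.8% in WTKL and the ratio was 0.89 (0.80 to 0.99). In T cells, where the gene is not expressed, an Ighd UMI was found in 0.448% in LYZKL and 0.589% in WTKL, and at least 2 UMIs in 4 of 9145 and 0 of 8326, against 62.8% and 69.4% of B cells. Ighd (GRCm38, chr12:113406604-113416324, minus strand, an immunoglobulin constant gene beside Ighm at chr12:113418558-113422730) had 951 UMIs in LYZKL and 1295 in WTKL, or 777 and 862 CPM. Ighm, at 2240 CPM in LYZKL and 2297 CPM in WTKL, had a UMI in 92.9% and 91.2% of B cells, against 13.7% and 20.3% of T cells.

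**Figure D1:**
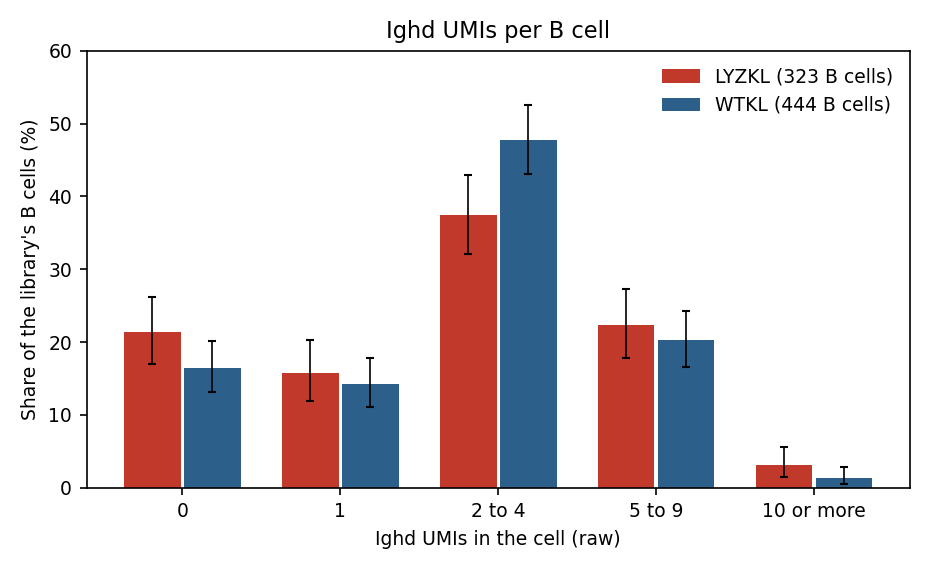
Share of B cells (%, y axis) by the number of Ighd UMIs in the cell (x axis), LYZKL left of WTKL in each class; bars are shares and whiskers 95% Clopper-Pearson intervals for counting error. The class of 2 to 4 UMIs was the largest in either library, with 121 LYZKL and 212 WTKL cells, and 69 LYZKL and 73 WTKL cells had no Ighd UMI.

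The number of Ighd UMIs per cell peaked at 2 to 4 in both libraries, with 37.5% of LYZKL and 47.7% of WTKL cells. Cells with none numbered 69 in LYZKL and 73 in WTKL, cells with 1 UMI numbered 51 and 63, cells with 5 to 9 numbered 72 and 90, and cells with 10 or more numbered 10 and 6. The highest value was 32 UMIs in LYZKL and 13 in WTKL. The median depth of Ighd-negative cells was 3313 UMIs in LYZKL and 3559 in WTKL, against 3441 and 3029 UMIs for Ighd-positive cells, so they were slightly shallower in LYZKL and deeper in WTKL.

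Ighd-positive cells were higher than Ighd-negative cells in genes of resting, recirculating B cells, and the order was shared by both libraries. The values below give Ighd-positive cells first, as CPM within each class of cells, and since Ighd split the cells they are a description. Fcmr, the receptor for IgM, had 516 against 186 CPM in LYZKL and 582 against 280 CPM in WTKL. Zfp318, the factor needed to splice heavy chain RNA to Ighd, had 259 against 127 CPM in LYZKL and 224 against 84.8 CPM in WTKL. Maml3, a coactivator of Notch, had 94.2 against 17.2 CPM in LYZKL and 97.2 against 34.5 CPM in WTKL. Also among the 10 highest were Cers4, a ceramide synthase, Stat4, which relays cytokine signals, Pip5k1b, which makes a membrane phosphoinositide, Med4, a subunit of the Mediator complex, and Tmem108 and Fam169b, with log2 ratios of 1.09 to 1.62 across both libraries. Without mixed barcodes and germinal centre cells the ratios of these 9 genes were 0.68 to 2.02. Of the naive follicular list, counted without Ighd but with Ighm, 15 of 17 measured genes were higher in Ighd-positive cells of both libraries, beside 28.9% of all genes at 5 CPM or more, and 6 of them at least 1.5-fold in both, beside 6.26%. The list's median log2 ratio was 0.61 in LYZKL and 0.44 in WTKL, beside 0.03 and 0.02 over all genes, and 0.23 and 0.40 without mixed barcodes and germinal centre cells.

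Ighd-negative cells were higher in genes of memory B cells, and the activation list did not share that order. Rgs1, a brake on chemokine receptor signalling, had 45.0 CPM in Ighd-positive against 282 CPM in Ighd-negative cells of LYZKL, and 37.2 against 553 CPM in WTKL. Basp1, a membrane-bound signalling protein, had 13.9 against 210 CPM in LYZKL and 26.2 against 355 CPM in WTKL. Itgb1, the integrin beta 1 chain that memory B cells raise, had 58.9 against 182 CPM in LYZKL and 47.3 against 151 CPM in WTKL. Anxa2, a calcium-binding membrane protein, had 53.6 against 172 CPM in LYZKL and 31.3 against 113 CPM in WTKL. The memory and age-associated list was lower in Ighd-positive cells of both libraries for 15 of its 19 measured genes, beside 25.4% of all genes, and at least 1.5-fold lower in both for 7, beside 5.55%. Its medians were -0.86 in LYZKL and -0.60 in WTKL, and -0.83 and -0.94 once mixed barcodes and germinal centre cells were left out. Of the 25 activation genes 12 were higher and 6 lower in Ighd-positive cells of both libraries, with medians of 0.09 in LYZKL and 0.18 in WTKL, and of 0.15 and -0.01 without those cells. Proliferation genes were lower in Ighd-positive cells, an order that turned in the list medians without those cells. Cell cycle genes had medians of -1.24 in LYZKL and -1.76 in WTKL, but of 0.43 and 0.29 without mixed barcodes and germinal centre cells. The Mki67 ratio of -3.27 in LYZKL and -6.58 in WTKL became 0.47 and -0.59. Outside germinal centre cells Mki67 had 8 UMIs in LYZKL and 4 in WTKL, and Top2a 4 and 5. These turned values thus rest on few UMIs and give no direction. The remaining genes among the 10 lowest were Lmnb1, a nuclear lamin, Gng12, a G protein subunit, Hist1h1e, a linker histone, Jchain and Hmgn2, a nucleosome-binding protein. Without the same cells Basp1, Rgs1, Anxa2, Itgb1 and Lmnb1 had ratios of -2.41, -1.85, -0.83, -1.32 and -1.45 in LYZKL and of -4.53, -3.37, -2.67, -1.65 and -1.99 in WTKL. Of the others, Gng12 was then at -0.68 in LYZKL and -0.39 in WTKL, Hist1h1e at -0.99 and -0.18, and Hmgn2 at -0.09 and -0.13. Jchain, at 0.55 and -0.70, turned in LYZKL. Outside germinal centre cells it had 22 UMIs there over both Ighd classes, so its turn also rests on few UMIs.

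Across the 6299 genes with at least 50 UMIs over both libraries, 902 (14.3%) were at least 1.5-fold higher in Ighd-positive cells of LYZKL and 977 (15.5%) in those of WTKL, with 218 (3.46%) in both. At least 1.5-fold lower were 742 (11.8%) in LYZKL and 721 (11.4%) in WTKL, with 174 (2.76%) in both. The Ighd-negative classes are small, 69 LYZKL and 73 WTKL cells, and most genes past this fold in 1 library were not past it in the other.

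**Figure D2:**
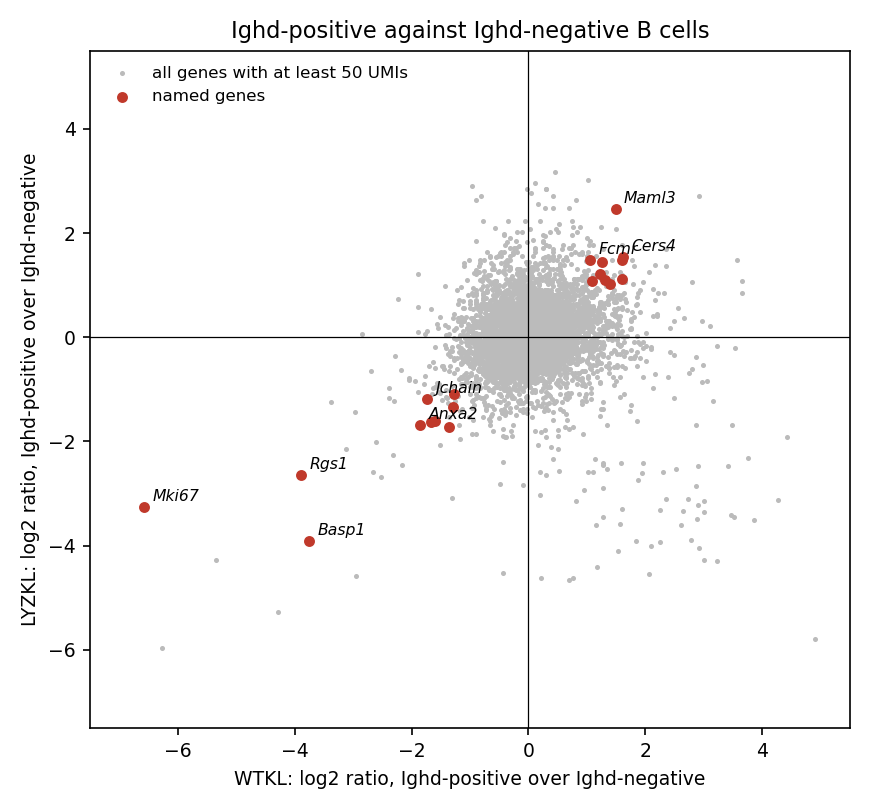
Log2 ratio of CPM, Ighd-positive over Ighd-negative B cells, in LYZKL (y axis) against WTKL (x axis); grey points are genes with at least 50 UMIs over both libraries and a UMI in every class, red points the 10 highest and 10 lowest named genes. Basp1, Rgs1 and Mki67 lie far down on both axes, with Basp1 at -3.91 in LYZKL and -3.76 in WTKL. The points at the lower right include genes carried by the mixed barcodes, 4 of 5 of which were Ighd-negative in LYZKL and 10 of 10 Ighd-positive in WTKL.

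Switched constant genes were found in Ighd-negative cells, with 1 exception. With a limit of 5 UMIs of 1 switched gene, set after the data were seen, 16 LYZKL B cells (4.95%, 2.86 to 7.92%) and 28 WTKL B cells (6.31%, 4.23 to 8.99%) were switched. After thinning to 1500 UMIs 0 LYZKL and 5 WTKL cells reached it, so the count rests on depth. Before thinning it was met by 6 of 9145 LYZKL and 11 of 8326 WTKL T cells. Of Ighd-negative cells 15 of 69 in LYZKL (21.7%) and 28 of 73 in WTKL (38.4%) were switched, and of Ighd-positive cells 1 of 254 in LYZKL and 0 of 371 in WTKL. Ighg2b, an IgG constant gene (GRCm38, chr12:113302965-113307933, minus strand), was the commonest, with 10 LYZKL and 16 WTKL cells, and no T cell of either library reached 5 Ighg2b UMIs. Igha, the IgA gene, led in 4 LYZKL and 10 WTKL cells, Ighg2c in 1 LYZKL cell, and Ighg1 and Ighg3 in 1 WTKL cell each. The single switched Ighd-positive cell was a LYZKL cell with Ighe. An Ighm level of at least 5 UMIs was seen in 221 LYZKL and 319 WTKL B cells. Among them were 1 of the 16 switched LYZKL cells and 3 of the 28 switched WTKL cells. Lambda light chain UMIs exceeded kappa UMIs in 14 LYZKL cells (4.33%) and 29 WTKL cells (6.53%), so kappa was the main light chain of either library.

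Single UMIs of secreted immunoglobulin RNA were also common in T cells, which do not make it, and less so in LYZKL. Igha had a UMI in 11.1% of LYZKL and 26.4% of WTKL B cells, against 19.2% and 35.6% of the deeper T cells. After thinning to 1500 UMIs the Igha shares were 5.14% in LYZKL and 11.3% in WTKL B cells and 4.82% and 11.0% in T cells, so single Igha UMIs were at the level of background. Jchain, the joining chain of secreted IgA and IgM, was above it after thinning, in 4.50% of LYZKL and 10.2% of WTKL B cells against 2.63% and 6.56% of T cells. Igkc was seen in 41.8% of LYZKL and 70.2% of WTKL T cells. Summed levels were 51.5 CPM in LYZKL and 168 CPM in WTKL for Igha and 33.5 and 87.2 CPM for Jchain, and the part of the background in these differences was not tested.

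A handful of cells carried a germinal centre profile. The core list held 8 genes, among them S1pr2, which confines cells to the germinal centre, Rgs13, a regulator of chemokine signalling there, Gcsam and Mef2b. At least 2 of the 8 were detected in 7 LYZKL B cells (2.17%, 0.88 to 4.41%) and 15 WTKL B cells (3.38%, 1.90 to 5.51%), a ratio of 0.64 (0.26 to 1.56). T cells reached that limit in 1.03% in LYZKL and 0.841% in WTKL, and many single detections came from Neil1 and Mef2b, which had a UMI in 4.65% and 5.38% of LYZKL T cells. The number of core genes per cell was split: in LYZKL 254 cells had 0, 62 had 1, 3 had 2 and 4 had at least 4, and in WTKL 356 had 0, 73 had 1, 8 had 2 and 7 had at least 4, with no cell at 3 in either library. At least 4 core genes, a limit chosen after these counts were seen, were therefore found in 4 LYZKL cells (1.24%, 0.34 to 3.14%) and 7 WTKL cells (1.58%, 0.64 to 3.22%), a ratio of 0.79 (0.23 to 2.66), and in 0 of 9145 LYZKL and 0 of 8326 WTKL T cells. The interval of the ratio spans both lower and higher shares in LYZKL, so a difference was not detectable at this number of cells. The counts rest on depth: after thinning to 1500 UMIs, at least 4 core genes were left in 1 of 311 LYZKL and 1 of 432 WTKL cells, and at least 2 in 2 and 7 cells.

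**Figure D3:**
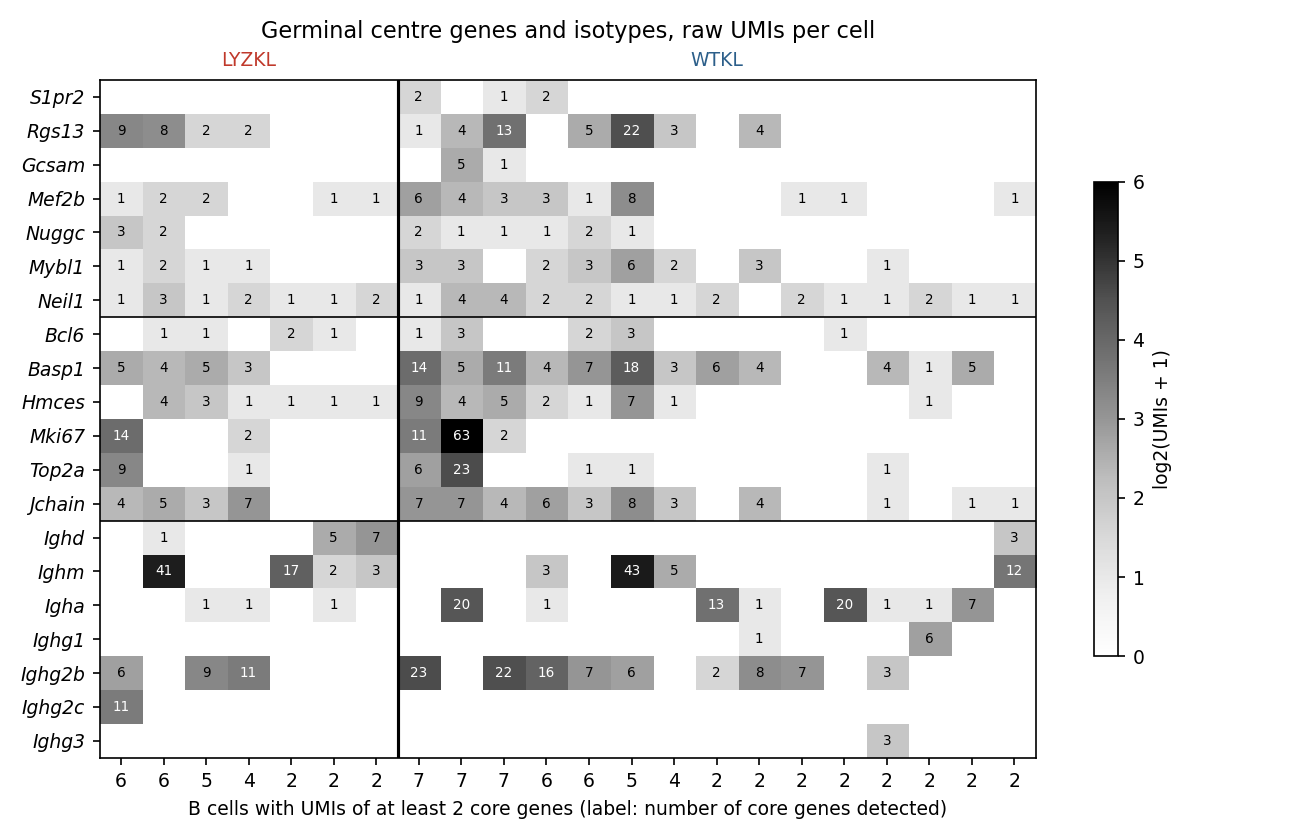
Raw UMIs of 7 of the 8 core germinal centre genes (top block), further germinal centre and cycle genes with Jchain (middle) and heavy chain constant genes (bottom) in each B cell with at least 2 core genes, LYZKL left of WTKL; numbers are UMIs, shading is log2(UMIs + 1), and the label under a column is the number of core genes detected. Cells with 4 or more core genes also hold Basp1 and Jchain UMIs and mostly an Ighg2b signal. The 3 LYZKL cells with 2 core genes hold no Basp1, Jchain or Ighg2b UMI, while of the 8 such WTKL cells 5 hold Basp1, 4 Jchain and 4 Ighg2b.

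These 11 cells shared features in genes that had not chosen them. All had 3 to 18 Basp1 UMIs, and Ccr7 was at 0 or 1. They also had 3 to 8 Jchain UMIs, a gene whose upper end the plasma cell limit can set. Of the genes that had, Rgs13 was detected in 4 of 4 LYZKL and 6 of 7 WTKL cells, with up to 9 UMIs in LYZKL and up to 22 in WTKL. They were deep, with median totals of 7797 UMIs in LYZKL and 9164 UMIs in WTKL, against 3410 and 3084 UMIs in the other B cells. Switched isotypes were found in 3 of 4 LYZKL cells, with Ighg2b in 2 and Ighg2c in 1, and in 6 of 7 WTKL cells, with Ighg2b in 5 and Igha in 1. Of the 5 WTKL cells with Ighg2b, 1 had 43 Ighm UMIs against 6 Ighg2b UMIs. A single Ighd UMI was seen in 1 LYZKL cell and none in WTKL. Not every gene of the wider germinal centre list was higher in these 11 cells. Bcl6 had 55.2 CPM in the 4 LYZKL cells against 134 CPM in other LYZKL B cells, and 130 against 112 CPM in WTKL. Pdcd1lg2 and Cd93 had 0 UMIs in all 11 cells. Fcer2a, of the naive follicular list, had 166 against 102 CPM in LYZKL and 57.6 against 179 CPM in WTKL. S1pr2 and Gcsam had 0 UMIs in all 323 LYZKL B cells and 7 and 6 UMIs in WTKL B cells. By the limit of 3 counts, 0 of 323 allows a share of up to 0.929% of LYZKL cells with a captured UMI, which does not bound the cells that express either gene.

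Cycle genes were detected in part of them. Mki67, the proliferation antigen, had a UMI in 2 of 4 LYZKL and 3 of 7 WTKL cells, and Top2a, which untangles replicated DNA, in 2 of 4 and 4 of 7. Over all B cells Mki67 had 24 UMIs in LYZKL and 80 UMIs in WTKL B cells, of which 1 LYZKL cell held 14 and 1 WTKL cell held 63; these cells also had 9 and 23 UMIs of Top2a. In CPM, Mki67 was at 19.6 in LYZKL and 53.3 in WTKL, a log2 ratio of -1.44 (-2.17 to -0.77). Without the 11 cells it was 1.27 (-0.63 to 3.45), from 8 LYZKL and 4 WTKL UMIs, too few to order. The germinal centre list of 16 measured genes had 3 higher and 13 lower in LYZKL, beside 5141 and 4583 of 9724 genes, with a median of -0.63. Without these cells the median was 0.01, with 6 higher and 6 lower of 12. At least 1.5-fold lower were then 3, beside 8.31% of all genes. The core genes that chose these cells belong to the list, so its shift is in part set by that choice.

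Between the groups, the broad B cell programme was close and genes of the interferon response were higher in LYZKL. Of the 6299 genes with at least 50 UMIs over both libraries, 310 (4.92%) were at least 1.5-fold higher in LYZKL and 243 (3.86%) at least 1.5-fold lower, and the counting interval of 215 and 164 of them excluded 1. For gene lists, members were counted from 5 CPM upward in whichever library was higher, a rule under which 11.3% of 9724 genes were at least 1.5-fold higher and 8.67% at least 1.5-fold lower, with a median log2 ratio of 0.02. Of the interferon gamma list, 17 of 24 measured genes were at least 1.5-fold higher in LYZKL and 0 lower, with a median of 0.74. Of the type I interferon list, 14 of 27 were at least 1.5-fold higher and 0 lower, with a median of 0.61. Without mixed barcodes these counts were 14 of 24 and 12 of 25, with medians of 0.64 and 0.49, beside 12.1% of all genes higher and 8.42% lower.

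**Figure D4:**
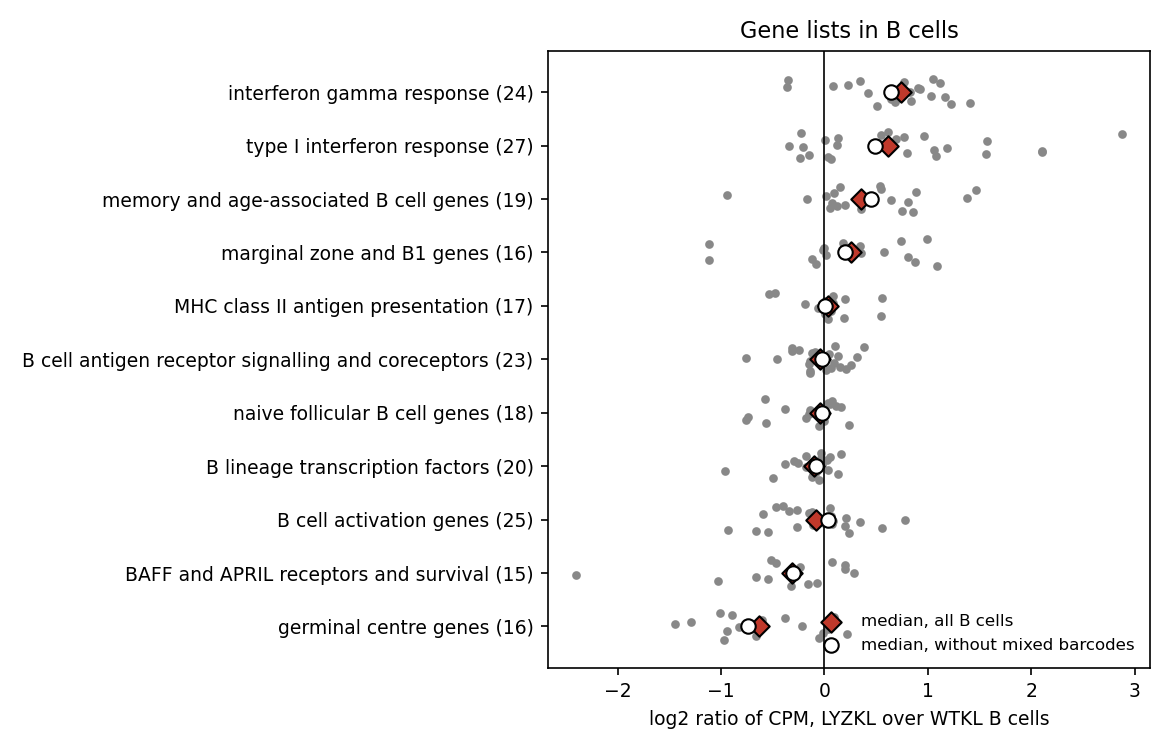
Log2 ratio of CPM, LYZKL over WTKL B cells (x axis), for the members of each list that reach 5 CPM in either library (grey points; the number measured stands after the list's name), with the list median over all B cells (red diamonds) and without mixed barcodes (open circles). Members at 0 in 1 library have no point. The interferon lists lie to the right of 0 with medians of 0.74 and 0.61, and the antigen presentation and receptor signalling lists lie at 0.03 and -0.04. The receptor signalling list includes Cd79a, Cd79b and Ms4a1, which chose the cells.

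Interferons are cytokines that signal through transcription factors of the STAT family; interferon gamma leads to the guanylate-binding proteins and immunity-related GTPases, and type I interferons to antiviral genes, with much overlap between both sets. Among the signal carriers, Stat2 had 86 UMIs (70.2 CPM) in LYZKL and 54 UMIs (35.95 CPM) in WTKL, a log2 ratio of 0.97 (0.46 to 1.48), and was detected in 18.3% of LYZKL and 10.8% of WTKL B cells. Irf1, a transcription factor that interferon gamma induces, had 510 CPM in LYZKL and 312 CPM in WTKL (0.71, 0.54 to 0.89), with a UMI in 66.9% and 47.7% of B cells. Socs1, the feedback inhibitor of the interferon receptors, had 194 CPM in LYZKL and 89.9 CPM in WTKL (1.11, 0.80 to 1.43), in 35.0% and 19.4% of B cells. All 3 were higher in LYZKL also without mixed barcodes, at ratios of 1.03, 0.73 and 1.16.

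The effector genes were low in both libraries and higher in LYZKL. Gbp7, a guanylate-binding protein, had 61.3 CPM in LYZKL and 29.96 CPM in WTKL (1.03, 0.48 to 1.60), and Gbp4, Gbp5 and Gbp9 had 41.7, 34.3 and 53.1 CPM in LYZKL and 25.97, 21.97 and 32.6 CPM in WTKL. Gbp2 had 48.2 CPM in LYZKL and 29.96 CPM in WTKL, with 14 of 59 LYZKL UMIs in 1 cell. Irgm1, a GTPase of defence against intracellular microbes, had 71.9 CPM in LYZKL and 37.95 CPM in WTKL (0.92, 0.42 to 1.43), and its relatives Irgm2 and Tgtp2 had 44.9 and 44.1 CPM in LYZKL and 23.97 and 21.3 CPM in WTKL, though a near-identical copy of Tgtp2 could share its reads. Ifi206 and Ifi213, DNA-binding members of the interferon-inducible p200 family, had 60.4 and 57.2 CPM in LYZKL and 28.6 and 19.3 CPM in WTKL; these close relatives could also share reads. Cd274, the checkpoint ligand PD-L1, had 138 CPM in LYZKL and 97.2 CPM in WTKL (0.51, 0.18 to 0.84), but 103 and 101 CPM within Ighd-positive cells. Members of the antigen-processing machinery were closer: the immunoproteasome subunit Psmb8 was at 260 CPM in LYZKL and 246 CPM in WTKL, the peptide transporter subunit Tap1 at 117 and 91.9 CPM, and its partner Tap2 at 88.2 and 113 CPM. For Cxcl10, a chemokine, and Isg15, a ubiquitin-like protein, the ratios of 1.22 and 1.19 were 0.40 and -0.08 without mixed barcodes.

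The difference was spread over cells. After thinning to 1500 UMIs, B cells had a mean of 3.71 UMIs of the interferon gamma list in LYZKL and 2.60 in WTKL, with medians of 3 and 2, and at least 3 UMIs were found in 62.7% of LYZKL cells (57.1 to 68.1%) and 40.5% of WTKL cells (35.8 to 45.3%), a ratio of 1.55 (1.34 to 1.79). The 5% of cells with the most such UMIs held 15.6% of them in LYZKL and 19.6% in WTKL. For the type I list the shares were 53.1% in LYZKL and 41.7% in WTKL, a ratio of 1.27 (1.09 to 1.48). Among T cells the shares with at least 3 UMIs were 70.7% in LYZKL and 69.2% in WTKL for the gamma list and 47.9% and 45.2% for the type I list. The list medians in T cells were 0.17 and -0.10, with 2 of 26 and 0 of 30 genes at least 1.5-fold higher beside 1.57% of all genes there. Within B cells the gamma list had a median of 0.56 in Ighd-positive cells, where 10 of 24 genes were at least 1.5-fold higher beside 12.6% of all genes, and of 1.41 in Ighd-negative cells, where 20 of 25 were, beside 26.2%; the Ighd-negative cells include 4 of the LYZKL mixed barcodes, and macrophage markers there had a median of 4.11. Of 12 measured T cell markers in B cells 1 was higher in LYZKL, beside 5141 of 9724 genes, with a median of -0.55. Their summed log2 ratio was -0.12 (-0.31 to 0.07). The rule had left out barcodes with a Cd3 UMI, and the part of T cell RNA in the interferon values was not tested.

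The promoters of several of these genes hold a known interferon motif, and the stretches are shown because the genes were higher together. The motif searched was GAAA followed by any 2 bases and GAAA again, the core of the interferon-stimulated response element, on both strands, in RefSeq windows around the transcription start (GRCm38.p6). It was found for 11 of the 19 interferon gamma list genes that had a window and for 9 of the 12 of them that were at least 1.5-fold higher in LYZKL. For the type I list it was found for 16 of 27 and for 6 of 8. These higher genes include Cxcl10 and Isg15, which were not 1.5-fold higher without mixed barcodes. Of all 27025 genes with a window, 3.99% held it. The lists hold known interferon response genes, so their larger share was set by that choice and is not a result of these data. In the lines below the motif is in capitals, each sequence runs 5′ to 3′ along the gene's own strand, and a motif of the opposite strand reads TTTC, 2 bases, TTTC.
Socs1, chr16:10785590-10785639, minus strand: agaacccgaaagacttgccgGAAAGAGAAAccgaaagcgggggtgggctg
Irgm1, chr11:48871421-48871470, minus strand: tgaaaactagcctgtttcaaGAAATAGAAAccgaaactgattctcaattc
Irgm2, chr11:58214893-58214942, plus strand: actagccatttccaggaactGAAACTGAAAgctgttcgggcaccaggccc
Tgtp2, chr11:49064253-49064302, minus strand: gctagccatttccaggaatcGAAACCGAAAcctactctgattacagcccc
Ifi206, chr1:173491329-173491378, minus strand: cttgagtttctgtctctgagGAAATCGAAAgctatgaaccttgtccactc
Ifi213, chr1:173599316-173599365, minus strand: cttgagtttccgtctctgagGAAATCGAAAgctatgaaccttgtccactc
Gbp2, chr3:142620584-142620633, plus strand: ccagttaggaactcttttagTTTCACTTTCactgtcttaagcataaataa
Gbp7, chr3:142530263-142530312, plus strand: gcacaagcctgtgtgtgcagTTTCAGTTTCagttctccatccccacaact
Stat2, chr10:128270256-128270305, plus strand: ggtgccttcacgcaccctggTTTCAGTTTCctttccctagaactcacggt
The last 3 carry it in the opposite orientation. The Socs1 and Irgm1 windows each hold a second copy that overlaps the first and is left in lower case beyond it. Ifi206 and Ifi213 have near-identical stretches. A match describes the letters of the window and does not show that a factor was bound.

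Genes of resting follicular B cells split. Fcer2a, the low-affinity IgE receptor CD23, had 104 CPM in LYZKL and 173 CPM in WTKL (-0.74, -1.06 to -0.43), and Cr2, the complement receptor CD21 that lowers the threshold for antigen, had 97.2 and 164 CPM (-0.76, -1.09 to -0.44). Fcer2a had a UMI in 26.01% of LYZKL and 34.5% of WTKL B cells, and in at most 0.156% of T cells. Within Ighd-positive cells alone Fcer2a was at 120 CPM in LYZKL and 193 CPM in WTKL, and Cr2 at 108 and 168 CPM. The chemokine receptor Ccr7, which guides cells to T cell zones, had 274 CPM in LYZKL and 405 CPM in WTKL (-0.57), and Gpr183, the oxysterol receptor that sets position within follicles, had 207 and 326 CPM (-0.66); T cells express both. Vpreb3, a B lineage chaperone, had 212 CPM in LYZKL and 316 CPM in WTKL. Cd55, at 484 CPM in LYZKL and 486 CPM in WTKL, and S1pr1, at 102 and 94.5 CPM, differed by less than their counting intervals. Of the list's 18 genes, 0 were at least 1.5-fold higher and 2 at least 1.5-fold lower, near the 8.67% of all genes, and the median was -0.04.

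Memory and age-associated genes were higher in LYZKL for 17 of 19 members, beside 5141 of 9724 genes at 5 CPM or more. At least 1.5-fold higher were 7 and lower 1, beside 11.3% and 8.67% of all genes. The median was 0.36. Without mixed barcodes it was 0.45, with 15 of 19 members higher, beside 5277 of 9702 genes. Within Ighd-positive cells 14 of 19 were higher, beside 5157 of 9775 genes, with a median of 0.27. Within Ighd-negative cells 12 of 19 were higher, beside 5244 of 10274 genes, with a median of 0.20. The part of the Ighd-negative share in the list's difference was not tested. S100a6, a calcium-binding protein of memory lymphocytes, had 689 CPM in LYZKL and 373 CPM in WTKL (0.88, 0.73 to 1.04), and Ahnak, a giant scaffold protein, had 279 and 154 CPM (0.86, 0.61 to 1.10). The share of cells with a UMI differed less than the level: S100a6 was found in 39.6% of LYZKL and 33.1% of WTKL B cells, and Ahnak in 28.8% and 24.8%. T cells express both, with a UMI in 85.6% and 83.7% of LYZKL T cells. Fcrl5, an inhibitory receptor of atypical memory cells, had 64.5 CPM in LYZKL and 41.3 CPM in WTKL, Zeb2, a transcription factor needed for age-associated B cells, had 101 and 69.9 CPM, and Nt5e, the memory marker CD73, ran the other way at 13.9 and 26.6 CPM. Tbx21, which encodes T-bet, had 9 UMIs in LYZKL and 4 UMIs in WTKL, and Itgax 1 and 3 UMIs, too few to order. Of the marginal zone and B1 list 5 of 16 were at least 1.5-fold higher and 2 lower, with a median of 0.26; Cd9, a tetraspanin of both cell types, had 84.9 CPM in LYZKL and 48.6 CPM in WTKL, and Bhlhe41, a B1 cell regulator, had 27.0 and 12.7 CPM.

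Antigen presentation and receptor signalling were close between the groups. H2-Aa and H2-Ab1, the chains of the class II molecule I-A, had 6491 and 3288 CPM in LYZKL and 6486 and 3252 CPM in WTKL, and Cd74, the invariant chain, had 12522 CPM in LYZKL and 12242 CPM in WTKL. None of the 17 class II genes differed by 1.5-fold in either direction, although 1 was lower by that much without mixed barcodes, and the median was 0.03. Of the 23 receptor signalling genes 0 were at least 1.5-fold higher and 1 lower, beside 11.3% and 8.67% of all genes, with a median of -0.04. That list includes Cd79a, Cd79b and Ms4a1, which chose the cells, and its median is the value of Cd79a. Its closeness is thus in part set by the rule. Of the 20 B lineage transcription factors 5 were higher and 15 lower, beside 5141 and 4583 of 9724 genes. At least 1.5-fold lower was 1, beside 8.67% of all genes, and the median was -0.10. Ebf1 had 2037 CPM in LYZKL and 2209 CPM in WTKL, Pax5 321 and 394 CPM, and Id3, an inhibitor of E proteins, 29.4 and 57.3 CPM. Bcl6, the master regulator of the germinal centre that resting B cells also transcribe, had 132 CPM in LYZKL and 113 CPM in WTKL.

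A list of BAFF and APRIL receptors with survival and death genes leaned lower in LYZKL, and activation genes kept no direction. The BAFF receptor Tnfrsf13c, which keeps mature B cells alive, was at 154 CPM in LYZKL and 146 CPM in WTKL, and Tnfrsf13b, which binds BAFF and APRIL, at 73.5 and 102 CPM (-0.47, -0.86 to -0.09). The antiapoptotic Bcl2a1b and Bcl2a1d, near-identical copies that could share reads, had 183 and 60.4 CPM in LYZKL and 268 and 95.9 CPM in WTKL. This list, which also holds the death genes Bax, Bak1 and Bcl2l11, had 4 members higher and 11 lower of 15. Of all genes 5141 of 9724 were higher and 4583 lower. At least 1.5-fold lower were 3 members, beside 8.67% of all genes, and the median was -0.32. Nr4a1, an early gene of antigen receptor signalling, had 377 CPM in LYZKL and 477 CPM in WTKL, and Nfkb2 had 50.6 and 76.6 CPM, while Cd86, a costimulatory ligand, had 346 and 272 CPM and Cd69 506 and 547 CPM. The activation list had 1 of 25 members at least 1.5-fold higher and 3 lower, beside 11.3% and 8.67% of all genes, with a median of -0.08. Without mixed barcodes 3 of 26 were higher by that much and 2 lower, beside 12.1% and 8.42%, with a median of 0.03.

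Among single genes, several of the 15 highest ratios came from mixed barcodes. Saa3, an acute-phase protein, had 993 CPM in LYZKL and 136 CPM in WTKL (2.87, 2.66 to 3.09), and 0.45 was left of that log2 ratio without mixed barcodes; 1 LYZKL barcode held 1039 of 1216 UMIs. Fabp5, a fatty acid carrier, at 2.75, and Cfb, complement factor B, at 2.58, had 134 of 164 and 68 of 78 LYZKL UMIs in 1 barcode, and their ratios without mixed barcodes were 0.41 and -0.28. The same held for Ly6i (1.86 and 0.12 without them), Wfdc21 (1.26 and 0.40) and Hp (1.22 and 0.10), all known from myeloid cells or epithelium. In part it held for Wfdc17 (1.94 and 0.90), Cd63 (1.59 and 0.84) and Clec4e (1.22 and 0.89), still past 1.5-fold. Without mixed barcodes the intervals of Cd63 (-0.03 to 1.74) and Clec4e (-0.03 to 1.83) included 0. Across the settings tried the lowest ratios of Wfdc17, Cd63 and Clec4e were 0.23, 0.13 and -0.09.

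**Figure D5:**
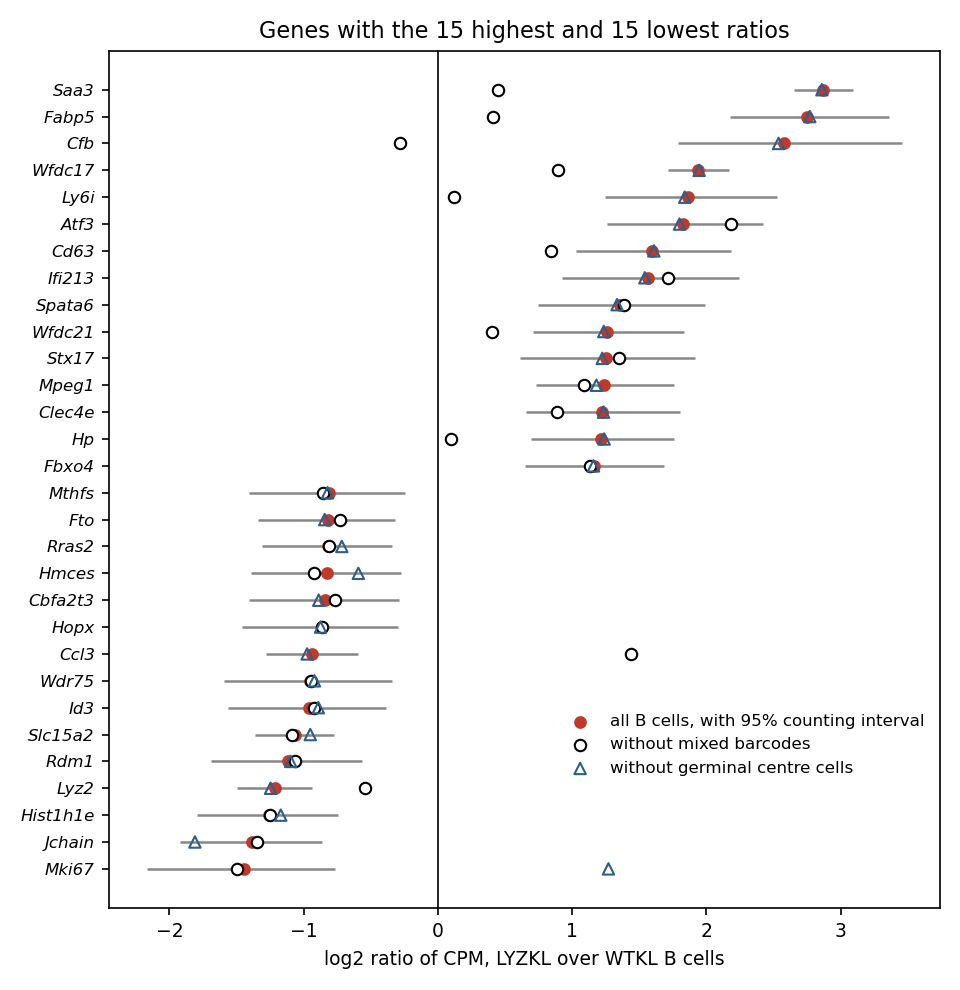
Log2 ratio of CPM, LYZKL over WTKL B cells (x axis), for the 15 highest and 15 lowest genes, over all B cells (red, with the 95% counting interval), without mixed barcodes (open circles) and without the 11 germinal centre cells (triangles). Saa3, Fabp5, Cfb, Ly6i and Hp move to between -0.28 and 0.45 without mixed barcodes, and Ccl3 moves to 1.44. Mki67 moves to 1.27 without germinal centre cells, with an interval of -0.63 to 3.45 that is not drawn.

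Other high genes did not rest on those barcodes, except Mpeg1 in part. Atf3, a stress-response transcription factor, had 101 UMIs (82.5 CPM) in LYZKL and 35 UMIs (23.3 CPM) in WTKL, a log2 ratio of 1.82 (1.26 to 2.42) that was 2.18 without mixed barcodes, and was found in 13.0% of LYZKL and 4.95% of WTKL B cells, against 15.04% and 11.7% of T cells. Within Ighd-positive cells Atf3 had 46.1 CPM in LYZKL and 24.5 CPM in WTKL, and within Ighd-negative cells 200 and 18.8 CPM. Ifi213 was at 1.57 and 1.71 without mixed barcodes. Spata6 had 58.0 CPM in LYZKL and 22.6 CPM in WTKL, Stx17, a SNARE protein of autophagosomes, 50.6 and 21.3 CPM, and Fbxo4, a ubiquitin ligase subunit, 74.3 and 33.3 CPM. Mpeg1, a pore-forming protein of macrophages that B cells also express, had 78.4 CPM in LYZKL and 33.3 CPM in WTKL. Of its 96 LYZKL UMIs 37 lay in 1 barcode. Without mixed barcodes it had 47.0 and 22.2 CPM, with 1.08 left of its log2 ratio of 1.24. Across the settings tried that ratio ran from 0.42 to 1.43.

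At the low end, Slc15a2, a peptide transporter, had 109 CPM in LYZKL and 227 CPM in WTKL (-1.06, -1.36 to -0.77), with a UMI in 68 LYZKL and 142 WTKL cells. Rdm1, a DNA repair protein, had 31.0 CPM in LYZKL and 67.2 CPM in WTKL, Hist1h1e 35.1 and 83.9 CPM, Cbfa2t3, a transcriptional corepressor, 33.5 and 59.9 CPM, and Rras2, a small GTPase of antigen receptor signalling, 44.1 and 77.9 CPM. Hmces, which protects abasic sites in DNA, had 33.5 CPM in LYZKL and 59.3 CPM in WTKL, and its ratio of -0.82 was -0.59 without germinal centre cells. Wdr75, Hopx, Fto and Mthfs had ratios of -0.95 to -0.81 and kept values of -0.94 to -0.73 without mixed barcodes. Lyz2, lysozyme of myeloid cells, had 118 CPM in LYZKL and 274 CPM in WTKL, mostly from 1 WTKL barcode, and 42.7 and 62.3 CPM without mixed barcodes. Ccl3, a chemokine, had 84.9 CPM in LYZKL and 162 CPM in WTKL with 151 of 244 WTKL UMIs in 1 barcode, and 56.4 and 20.8 CPM without them.

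Tmem173, the gene floxed in both marrows, was sparse in B cells, with 45 UMIs (36.8 CPM) in LYZKL and 29 UMIs (19.3 CPM) in WTKL, a log2 ratio of 0.93 (0.22 to 1.65). It was detected in 12.7% of LYZKL and 6.31% of WTKL B cells and in 24.7% and 15.6% of T cells. After thinning to 1500 UMIs the shares were 6.11% and 3.24% of B cells and 6.15% and 4.15% of T cells, and the part of free RNA in the B cell values was not tested. Reads from the 3′ end do not show whether the floxed part was present, so these values do not check the deletion. Of the STING pathway list 2 of 11 genes, Tmem173 among them, were at least 1.5-fold higher and 0 lower, with a median of 0.09. Of all genes 11.3% were higher and 8.67% lower by that much.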

How the data were processed

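Droplet 3′ RNA libraries of LYZKL and WTKL (1 each) were analysed. The authors deposited unnormalised UMI counts for 32285 genes, made with Cell Ranger 6.1.2 on mm10 per the submitters' processing notes; LYZKL had 13607 barcodes and 93584629 UMIs and WTKL 12204 and 77181312. The gene and barcode files hold labels. The members, gene lists and tests were chosen with earlier results of these data known.

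UMIs were summed over B cells per library and scaled to their total (CPM); 3′ counts were not divided by gene length. Ratios have exact conditional binomial intervals, shares Clopper-Pearson and ratios of shares Katz intervals, all at 95%. Named genes were the 15 highest and 15 lowest ratios among genes reaching 50 CPM in either library and 50 UMIs over both, without receptor segments, mitochondrial, ribosomal, Y-linked and unnamed genes, and the 10 highest and 10 lowest for the Ighd split by the smaller of both ratios; list members with at least 30 CPM served as examples, and members named at lower values were chosen after they were seen. Doublets were not removed in the main values; Scrublet at 0.8% per 1000 barcodes, an alternative, would have removed 10 LYZKL and 7 WTKL B cells. The ratios were tested on simulated counts. Scale alternatives were TMM (edgeR 4.0.16) and size factors (DESeq2 1.42.0). Python 3.11.15, scipy 1.17.1 and scanpy 1.11.5 were used, with GENCODE coordinates on GRCm38. Whether cells of a library came from 1 or several mice is not given in the sources used here. A few genes that the lists and the naming rule include are not reported here.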

Additional observations from a re-analysis of the deposited data

How the results depend on the processing

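No paired analysis was possible because each group was 1 library. The settings tried were limits of 200 and 1000 genes per barcode, 5% mitochondrial UMIs, at least 5 B cell gene UMIs, at most 1 Cd3 UMI, a Jchain or Mzb1 limit, doublet removal, thinning to 1000, 1500 or 2500 UMIs, per-cell means, other scales and gene minimums, and, chosen after the data were seen, leaving out mixed barcodes or germinal centre cells. TMM and DESeq2 scaling shifted log2 ratios by -0.013 and -0.017. Depth limits the germinal centre counts and genes under 50 UMIs. Where no reason is given, the cause was not tested.

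Of the comparison values, 132 stayed within their counting error or within 1.5 times the count and 20 moved. With at least 5 B cell gene UMIs, with doublets removed, without mixed barcodes and as per-cell means, the interferon gamma median was 0.51, 0.65, 0.64 and 0.64 and the type I median 0.45, 0.46, 0.49 and 0.47. The naive follicular median was -0.0064 with doublets removed, -0.14 with the Jchain or Mzb1 limit and -0.086 as per-cell means, and the class II median 0.0068 without mixed barcodes. The ratio of germinal centre shares ran from 0.23, after thinning to 1000 UMIs, to 1.11, with the Jchain or Mzb1 limit, which left 3 LYZKL and 4 WTKL cells; it was 0.40 and 0.94 at 1500 and 2500 UMIs. Genes higher and lower in LYZKL numbered 36 and 25 with at least 200 UMIs and 1480 and 1194 with any UMI. Genes shared by both libraries in the Ighd split numbered 68 higher and 40 lower after thinning to 1500 UMIs, and 115 lower with the Jchain or Mzb1 limit.

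Of the values for lists and single genes, 662 stayed, 81 moved and 27 reversed. With at least 5 B cell gene UMIs the neutrophil list was -0.29, Cfb -0.57, Ly6i -0.34 and Hp -0.43. With doublets removed the receptor signalling list was 0.0053, the macrophage list -0.82, the neutrophil list -2.12, Cfb -0.23, Ly6i -0.23, Wfdc21 -0.77, Clec4e -0.088 and Hp -1.12. With the Jchain or Mzb1 limit the germinal centre list was 0.19, its core 0.11, glycolysis 0.021, Mki67 0.77 and Ccl3 0.41. Without mixed barcodes the activation list was 0.033, the neutrophil list -0.46, the NK list 0.069, Cfb -0.28 and Ccl3 1.44. Without germinal centre cells the germinal centre list was 0.014 and Mki67 1.27, with an interval of -0.63 to 3.45. As per-cell means the receptor signalling list was 0.0023, the neutrophil list -0.30 and Ly6i -0.031.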

Other observations

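Apoe, an apolipoprotein best known from macrophages and liver, was detected in most of these B cells. It had a UMI in 63.5% of LYZKL B cells (58.0 to 68.7%) and 52.7% of WTKL B cells (47.9 to 57.4%), against 10.8% and 12.6% of T cells, which were deeper. Its level was 1021 CPM in LYZKL and 797 CPM in WTKL (log2 ratio 0.36, 0.24 to 0.47), and 1025 and 751 CPM without mixed barcodes. Within Ighd-positive cells it had 956 CPM in LYZKL and 602 CPM in WTKL, and within Ighd-negative cells the order turned, with 1228 and 1520 CPM. After thinning to 1500 UMIs the shares were 51.8% in LYZKL and 39.6% in WTKL, a ratio of 1.31 (1.12 to 1.53).

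Lgmn, an endosomal protease that cuts antigen, had 185 CPM in LYZKL and 126 CPM in WTKL (0.55, 0.27 to 0.84) and kept that ratio, at 0.53, without mixed barcodes, while Ctss, the protease that trims the class II invariant chain, had 1003 and 686 CPM and had a ratio of 0.55 that was -0.15 without them. Ltb, the lymphotoxin chain with which B cells shape lymphoid tissue, had 286 CPM in LYZKL and 389 CPM in WTKL (-0.44, -0.64 to -0.25). Klf2, a factor of quiescence and recirculation, had 1048 and 1361 CPM (-0.38, -0.48 to -0.28).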
